A study of Mus musculus with 6 samples.

Results

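The 10 genes described here encode the proteins that move calcium into and out of the sarcoplasmic reticulum of heart muscle cells. They were chosen by name from a table of 46452 genes, and all 10 had a row in it. The hearts came from mice aged 10 days, 3 labelled Nat10 flox/flox (both copies of Nat10 flanked by loxP sites) and 3 labelled Nat10-CKO (a conditional knockout of Nat10), and poly(A) RNA of each heart was sequenced. Per the labels, the 3 libraries of a group are independent biological replicates. The promoter that drives Cre, the exons removed, and whether the flox/flox animals were littermates are not given in the sources used here. Nat10, which encodes an RNA acetyltransferase, measured 3.75, 4.18 and 4.71 FPKM in Nat10 flox/flox hearts and 8.28, 8.66 and 10.2 FPKM in hearts labelled Nat10-CKO. FPKM is fragments per kilobase of gene, scaled for sequencing depth by the authors. The targeted gene was thus higher in the libraries whose label names its loss (log2 fold change 0.94 ± 0.12 SE, limma adjusted p = 0.00142), so the labels are given as labels throughout. These values cover the whole gene and do not separate exons or cell types.

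Each heartbeat begins with calcium that enters through L-type channels in the surface membrane, for which Cacna1c encodes the pore. That calcium opens ryanodine receptors (Ryr2) in the facing membrane of the sarcoplasmic reticulum, which junctophilin-2 (Jph2) holds close to the surface and triadin (Trdn) links to the calcium store. Calsequestrin-2 (Casq2) and the histidine-rich calcium-binding protein (Hrc) hold calcium inside the store. The muscle relaxes when the pump SERCA2 (Atp2a2) returns calcium to the store, restrained by the small membrane proteins phospholamban (Pln) and, mainly in atria, sarcolipin (Sln), and when the sodium-calcium exchanger (Slc8a1) carries the rest out of the cell.

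Of the 9 members with a mean of at least 1 FPKM, 4 fell (Pln, Hrc, Atp2a2 and Cacna1c), 1 rose (Jph2) and 4 did not pass (Casq2, Ryr2, Trdn and Slc8a1) in hearts labelled Nat10-CKO. Pln went to 28.2% of its Nat10 flox/flox mean, Atp2a2 to 40.2% and Hrc to 40.4%, and Jph2 rose to 225%. A member passed when its Benjamini-Hochberg adjusted p was under 0.05 over the 11996 genes tested with limma on log2(FPKM + 1). Over all tested genes 40.5% passed, 24.4% higher and 16.0% lower. Of the genes that passed, 60.4% were higher. That share was 41.7% with libraries scaled to their non-mitochondrial total and 76.3% with the cardiomyocyte markers as the scale. These scalings moved the median of all tested genes to -0.12 and 0.24. The groups did not overlap for 5 members that were lower (24.4% of all tested genes) and 2 that were higher (31.5%), or 7 of 9 in all against 55.9% of tested genes. The median log2 fold change was -0.58 over the 9 members and 0.03 over all tested genes. Sln was under the minimum and was not tested. The count of 5 became 2 on leaving out Nat10 flox/flox replicate 2 or replicate 3 and 3 on leaving out Nat10-CKO replicate 2. Over all tested genes, 3285 of 11967, 3427 of 11986 and 3750 of 12074 passed in those runs, in place of 4856 of 11996.

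**Figure D1:**
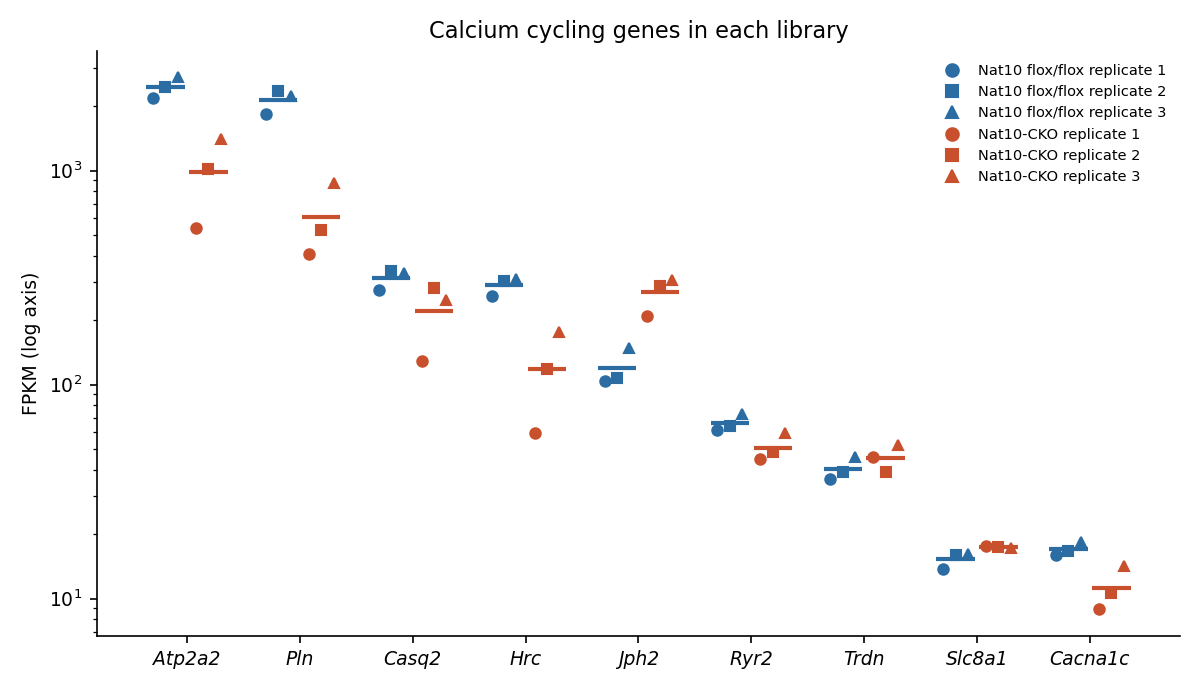
FPKM on a log axis for 9 calcium cycling genes, one point per library and a bar at each group mean (3 libraries per group). Atp2a2, Pln and Hrc sit lower in each heart labelled Nat10-CKO, Jph2 sits higher in all 3, and Sln is left out because it was at 0 in 3 libraries.

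Pln, Hrc and Jph2 are the called members with the largest changes whose start regions were in the RefSeq table (GRCm38.p6), which held windows for 7 of the 10 genes. The 250 bases before the annotated start are shown 5′ to 3′, since 2 of these genes fell and the other rose. Capitals mark matches, on either strand, to TATAAA (the TATA box), CATTCC (the site of TEAD factors), AGGTCA (the core site of many nuclear receptors, read as TGACCT from the opposite strand), GATAAG (the site of GATA factors), CANNTG (the E-box), the MEF2 site or the CArG box.
Pln (chr10:53337436-53337685, plus strand): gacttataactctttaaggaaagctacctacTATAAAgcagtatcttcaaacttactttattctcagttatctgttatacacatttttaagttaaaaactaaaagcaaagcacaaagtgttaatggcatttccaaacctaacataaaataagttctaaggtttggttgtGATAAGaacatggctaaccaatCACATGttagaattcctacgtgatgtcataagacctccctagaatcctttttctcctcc
Hrc (chr7:45335019-45335268, plus strand): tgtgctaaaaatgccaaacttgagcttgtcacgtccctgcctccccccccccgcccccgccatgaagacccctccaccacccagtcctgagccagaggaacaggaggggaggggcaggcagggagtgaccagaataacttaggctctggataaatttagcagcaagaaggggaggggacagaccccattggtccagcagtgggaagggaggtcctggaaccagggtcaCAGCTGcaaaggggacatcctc
Jph2 (chr2:163397994-163398243, minus strand): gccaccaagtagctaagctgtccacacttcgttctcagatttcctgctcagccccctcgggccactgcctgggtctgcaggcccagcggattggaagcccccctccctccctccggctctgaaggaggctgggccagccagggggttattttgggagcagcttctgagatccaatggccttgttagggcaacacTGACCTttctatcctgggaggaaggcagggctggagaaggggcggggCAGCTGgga
CANNTG was in all 10 member windows (Cacna1c has 3 and Jph2 has 2) and in 66.2% of 32851 windows of this length. TATAAA (12.4% of windows) was in the Pln window, GATAAG (6.55%) was in the Pln and Slc8a1 windows, and AGGTCA (14.0%) was in the Jph2 and Ryr2 windows. A MEF2 site (2.92% of windows) was in the Casq2 window alone among the members, and CATTCC (12.6%) and the CArG box (1.47%) were in none. No matches overlapped in the windows shown. The Pln window had 32.8% G and C, the Hrc window 59.6% and the Jph2 window 62.0%, against a median of 52.4%.

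Among the genes of calcium uptake, Atp2a2 (gene ID 11938, chromosome 5, 122591576 to 122640288, minus strand, build GRCm39) was the most abundant member and ranked 18 of all genes by mean level. It measured 2171, 2460 and 2725 FPKM in Nat10 flox/flox hearts and 541, 1016 and 1397 FPKM in hearts labelled Nat10-CKO. Each heart labelled Nat10-CKO lay below every Nat10 flox/flox heart, and Nat10-CKO replicate 1 was the lowest. The group mean was 2452 ± 277 FPKM against 985 ± 429 FPKM (SD, n = 3 in each), 2.49-fold lower, and the log2 fold change was -1.41 ± 0.34 (SE; limma adjusted p = 0.0173). The adjusted p was 0.0574 on leaving out Nat10 flox/flox replicate 2 and 0.0615 on leaving out replicate 3. In these bulk heart samples, fewer heart muscle cells and less RNA per cell cannot be told apart.

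Pln (gene ID 18821, chromosome 10, 53213782 to 53222095, plus strand), whose protein slows SERCA2 until it is phosphorylated, fell furthest of the 9 members. Its level was 1837, 2349 and 2225 FPKM in Nat10 flox/flox hearts and 409, 528 and 874 FPKM in hearts labelled Nat10-CKO. The groups did not overlap, and the highest heart labelled Nat10-CKO was under the lowest Nat10 flox/flox heart. The means of 2137 ± 267 and 604 ± 241 FPKM differed 3.54-fold (log2 fold change -1.89 ± 0.29 SE, limma adjusted p = 0.00304), and 93 of the 11996 tested genes had a more negative log2 fold change. The Pln gene lies within Cep85l on the opposite strand, and, per the labels' protocols, the libraries kept strand. Whether counting used the strand is not given in any source used here; Cep85l averaged 2.22 FPKM over the 6 libraries where Pln averaged 1370 FPKM.

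Sln (gene ID 66402, chromosome 9, 53757535 to 53761133, plus strand), the sarcolipin gene, was at the limit of detection. It had 2, 0 and 6 reads in Nat10 flox/flox hearts and 4, 0 and 0 in hearts labelled Nat10-CKO, where 3 reads correspond to 0.142 to 0.182 FPKM depending on the library. No difference was detectable at these read counts. No other gene model in the table overlaps Sln. The atrial markers Myl7, Myl4 and Bmp10 were also below 1 FPKM in all 6 libraries (Bmp10 was at 0 in each). Of the 6 ventricular markers, 5 were tested and 2 fell, the potassium channel genes Kcnip2 (75.3 ± 2.09 to 5.41 ± 4.09 FPKM) and Kcnj2 (9.24 ± 2.14 to 0.972 ± 0.309 FPKM). Myl2, at 1296 to 1644 FPKM and 746 to 1286 FPKM, Myl3 and Irx4 did not pass, and Hand1 was under the minimum. The ventricular markers summed to 5377 to 6359 FPKM in Nat10 flox/flox hearts and 4063 to 6760 FPKM in hearts labelled Nat10-CKO, and their part in the members' values was not tested. Of the 12 atrial markers listed, 1 rose and 1 fell among 5 tested (over all tested genes 24.4% rose and 16.0% fell). Their summed level was 132 to 255 FPKM in Nat10 flox/flox hearts and 8021 to 13543 FPKM in hearts labelled Nat10-CKO, of which Nppa alone gave 119 to 243 and 8008 to 13522 FPKM.

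The 2 genes of calcium storage differed in how firmly they separated the groups. Hrc (gene ID 15464, chromosome 7, 44984693 to 44988397, plus strand) measured 259, 304 and 312 FPKM in Nat10 flox/flox hearts and 59.6, 118 and 175 FPKM in hearts labelled Nat10-CKO. The groups were clear of each other, with the order of hearts labelled Nat10-CKO the same as for Atp2a2 and Pln. The means of 292 ± 28.4 and 118 ± 57.9 FPKM differed 2.48-fold (log2 fold change -1.43 ± 0.37 SE, limma adjusted p = 0.0214). The adjusted p was 0.0680 on leaving out Nat10 flox/flox replicate 2, 0.0686 on leaving out replicate 3 and 0.0545 on leaving out Nat10-CKO replicate 2.

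Casq2 (gene ID 12373, chromosome 3, 101993731 to 102053830, plus strand), the main calcium buffer of the store, was 278, 338 and 332 FPKM in Nat10 flox/flox hearts and 129, 283 and 247 FPKM in hearts labelled Nat10-CKO. The groups overlapped, since Nat10-CKO replicate 2 lay above Nat10 flox/flox replicate 1, and Nat10-CKO replicate 1 stood far below the rest. Casq2 did not pass (log2 fold change -0.59, 95% interval -1.30 to 0.11, limma adjusted p = 0.154). Its log2 fold change was -0.25 on leaving out Nat10-CKO replicate 1 and -0.81 on leaving out Nat10-CKO replicate 2.

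At the site of calcium release, Jph2 rose, and Ryr2 and Trdn did not pass. Jph2 (gene ID 59091, chromosome 2, 163178162 to 163239969, minus strand) measured 104, 108 and 148 FPKM in Nat10 flox/flox hearts and 210, 290 and 309 FPKM in hearts labelled Nat10-CKO. All 3 hearts labelled Nat10-CKO were above the highest Nat10 flox/flox heart. The means of 120 ± 24.1 and 270 ± 52.6 FPKM differed 2.25-fold (log2 fold change 1.16 ± 0.21 SE, limma adjusted p = 0.00548), and the adjusted p stayed between 0.00263 and 0.0269 when each library was left out in turn.

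Ryr2 (gene ID 20191, chromosome 13, 11567985 to 12121831, minus strand) was 61.3, 64.3 and 72.9 FPKM in Nat10 flox/flox hearts and 45.0, 48.3 and 59.1 FPKM in hearts labelled Nat10-CKO. The groups did not overlap, but the gap between them was narrow, and Ryr2 did not pass (log2 fold change -0.38, 95% interval -0.72 to -0.05, limma adjusted p = 0.0703). It did pass on leaving out Nat10-CKO replicate 3 (adjusted p = 0.0327) and when libraries were scaled to their non-mitochondrial total (0.00945) or to their protein-coding total (0.0254).

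Trdn (gene ID 76757, chromosome 10, 32959479 to 33352705, plus strand), which anchors calsequestrin beside the release channel, was 36.2, 39.1 and 45.7 FPKM against 45.7, 38.8 and 52.3 FPKM. The groups overlapped, and the difference did not pass (log2 fold change 0.17, 95% interval -0.19 to 0.53, limma adjusted p = 0.396). Its log2 fold change was -0.02 with libraries scaled to their non-mitochondrial total and -0.09 under quantile normalization. The noncoding D830005E20Rik, at a mean of 5.82 FPKM, overlaps Trdn on the opposite strand, so part of either value could belong to the other if counting ignored strand.

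**Figure D2:**
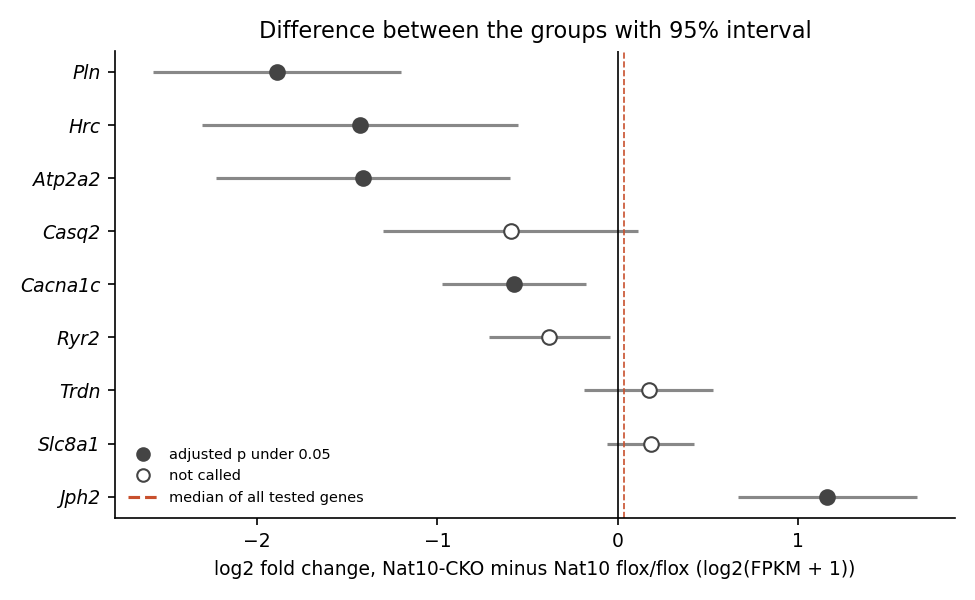
Log2 fold change of 9 members on the log2(FPKM + 1) scale, libraries labelled Nat10-CKO minus Nat10 flox/flox (3 per group), with 95% intervals, filled where the adjusted p was under 0.05, and a dashed line at the median of all tested genes (0.03). Pln, Hrc, Atp2a2 and Cacna1c lie below 0 and Jph2 above it, and the intervals of Casq2, Trdn and Slc8a1 cross 0.

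The genes of the surface proteins, Cacna1c and Slc8a1, had the lowest mean FPKM of the tested members. Cacna1c (gene ID 12288, chromosome 6, 118564201 to 119174345, minus strand) measured 15.9, 16.7 and 18.4 FPKM in Nat10 flox/flox hearts and 8.93, 10.6 and 14.2 FPKM in hearts labelled Nat10-CKO. Each heart labelled Nat10-CKO was below the Nat10 flox/flox range, by the least in replicate 3. The means of 17.0 ± 1.30 and 11.2 ± 2.66 FPKM differed 1.51-fold (log2 fold change -0.58 ± 0.17 SE, limma adjusted p = 0.0324). Cacna1c no longer passed with any 1 Nat10 flox/flox library left out (adjusted p = 0.0584, 0.0838 and 0.103 for replicates 1, 2 and 3), nor with Nat10-CKO replicate 1 (0.0531) or 2 (0.0942) left out. Nor did it pass when libraries were scaled to the cardiomyocyte markers (0.223). Dcp1b, at a mean of 1.84 FPKM, overlaps Cacna1c on the opposite strand.

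Slc8a1 (gene ID 20541, chromosome 17, 81680534 to 82045816, minus strand) was 13.7, 15.9 and 16.1 FPKM in Nat10 flox/flox hearts and 17.5, 17.4 and 17.2 FPKM in hearts labelled Nat10-CKO. The latter 3 were nearly equal and all above the former, yet the difference was small and did not pass (log2 fold change 0.18, 95% interval -0.06 to 0.42, limma adjusted p = 0.191). Its log2 fold change was 0.00 with libraries scaled to their non-mitochondrial total and -0.02 under quantile normalization.

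By level per length, the order in Nat10 flox/flox hearts was Atp2a2, Pln, Casq2, Hrc, Jph2, Ryr2, Trdn, Cacna1c, Slc8a1 and Sln. The ranges over the 3 libraries overlapped between Atp2a2 and Pln, between Casq2 and Hrc, and between Cacna1c and Slc8a1, and the other neighbours were apart. In hearts labelled Nat10-CKO, Jph2 came right after Pln, ahead of Casq2 and Hrc, although its range overlapped that of Casq2. Slc8a1 stood above Cacna1c there, with ranges apart.

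The summed FPKM of the 10 members was 4776, 5694 and 5895 in Nat10 flox/flox hearts and 1467, 2350 and 3146 in hearts labelled Nat10-CKO. The groups did not overlap, and the sum was 2.35-fold lower. An exact two-sided permutation test gave p = 0.1, the smallest that 3 against 3 allows. Atp2a2 and Pln together made up 84.1% of the sum of group means in Nat10 flox/flox and 68.4% in Nat10-CKO. Jph2 went from 2.20% to 11.6% of it.

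Ratios within a library do not depend on the scaling between libraries, so 4 were formed against Atp2a2. The Pln to Atp2a2 ratio of FPKM was 0.846, 0.955 and 0.816 in Nat10 flox/flox hearts and 0.756, 0.520 and 0.625 in hearts labelled Nat10-CKO. Pln RNA was thus lower relative to Atp2a2 RNA in all 3, with a mean of 0.634 ± 0.119 against 0.872 ± 0.0728 (SD, n = 3 per group). No protein was measured. Ryr2 to Atp2a2 was 0.0282, 0.0261 and 0.0267 against 0.0831, 0.0476 and 0.0423. Casq2 to Atp2a2 was 0.128, 0.137 and 0.122 against 0.239, 0.279 and 0.177. These 2 ratios were higher in each heart labelled Nat10-CKO. Ryr2 and Casq2 themselves stood at 76.8% and 69.6% of their Nat10 flox/flox means there, and the shared denominator Atp2a2 at 40.2%. Slc8a1 to Atp2a2 was 0.00631, 0.00648 and 0.00591 against 0.0324, 0.0172 and 0.0123, or 3.31-fold higher on average. Each of the 4 exact two-sided permutation tests gave p = 0.1 (also 0.1 after Benjamini-Hochberg adjustment over the 4), the smallest the design allows.

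**Figure D3:**
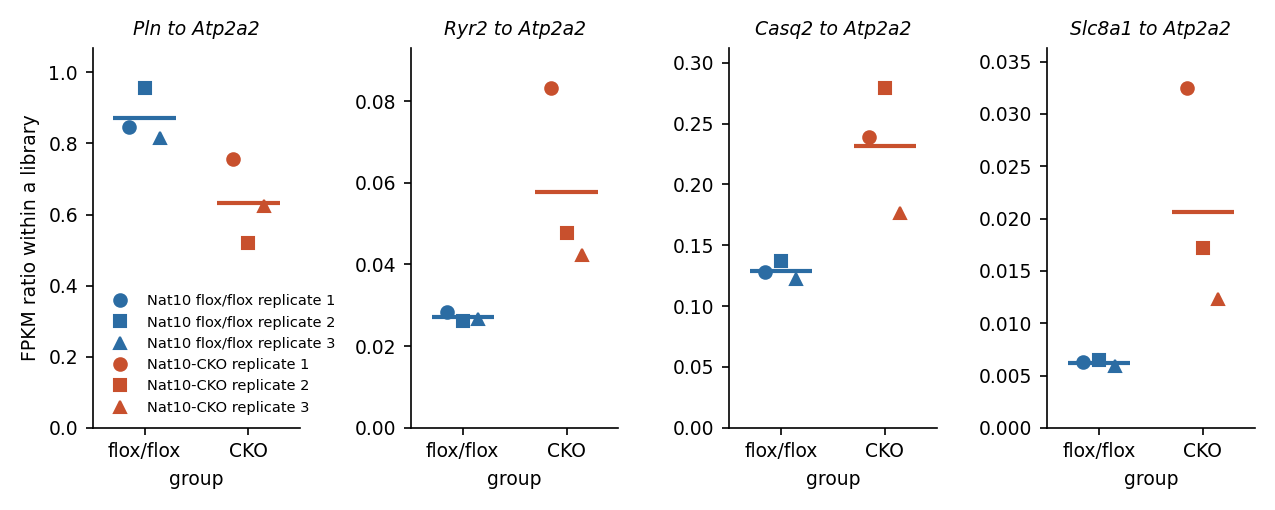
Ratio of FPKM to that of Atp2a2 within each library, one point per library and a bar at each group mean (3 libraries per group), with every vertical axis starting at 0. The Pln ratio is lower in hearts labelled Nat10-CKO and the Ryr2, Casq2 and Slc8a1 ratios are higher, with no overlap between groups.

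The libraries of a group took a common order across the members. Nat10 flox/flox replicate 1 was the lowest of its group for 9 of 9 tested members and for 45.1% of all tested genes. Nat10-CKO replicate 1 was the lowest of its group for 7 of 9, the exceptions being Slc8a1 and Trdn, and for 43.2% of all tested genes. Nat10-CKO replicate 3 was the highest for 7 of 9 (38.9% of all tested genes), leaving Casq2, highest in replicate 2, and Slc8a1, highest in replicate 1. Without both replicates numbered 1, the log2 fold changes were -1.12 for Atp2a2, -1.75 for Pln, -1.09 for Hrc and 1.24 for Jph2, each with a limma adjusted p under the threshold (0.00933, 0.00488, 0.0102 and 0.00443). Cacna1c, at -0.48, missed it (0.0573).

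Markers of the cell types a heart can hold were measured beside the members. None of the 10 cardiomyocyte markers passed in either direction (40.5% of all tested genes did), with a median log2 fold change of -0.16. Their geometric mean was 1414, 1550 and 1725 FPKM in Nat10 flox/flox hearts and 944, 1504 and 1626 FPKM in hearts labelled Nat10-CKO, again lowest in replicate 1. Tnnt2 (cardiac troponin T) stood at 106% and Actn2 (alpha-actinin-2) at 134% of the Nat10 flox/flox mean where Atp2a2 stood at 40.2%, while Actc1 (cardiac actin) and Mb (myoglobin) were at 60.1% and 61.3%, lowest in Nat10-CKO replicate 1. With each library scaled to this marker level, the log2 fold change was -1.18 for Atp2a2 (limma adjusted p = 0.00301), -1.65 for Pln (0.00122), -1.19 for Hrc (0.00818), 1.40 for Jph2 (0.00200) and -0.15 for Ryr2 (0.650).

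All 5 endothelial markers fell (sums of 245 to 299 FPKM against 140 to 152 FPKM), as did all 5 erythroid markers (689 to 1780 FPKM against 423 to 535 FPKM). Over all tested genes 16.0% fell and 24.4% rose. The 6 fibroblast markers gave 0 calls (300.2 to 331 FPKM against 335 to 613 FPKM), as did the 5 of macrophages and leukocytes (352 to 574 FPKM against 511 to 655 FPKM). Of 10 skeletal muscle markers, 7 were below 1 FPKM in all 6 libraries (summed 3.21 to 4.02 FPKM against 3.42 to 4.28 FPKM). Smooth muscle and pericyte markers included 1 higher and 2 lower call (196 to 234 FPKM against 93.3 to 125 FPKM). The 5 nerve ganglion markers summed to 120 FPKM in Nat10 flox/flox replicate 1 and to 0.496 to 1.98 FPKM in the other 5 libraries. Reads in genes numbered 31155521 to 38051266 per library, and the mitochondrially encoded genes took 16.6% to 18.3% of them in Nat10 flox/flox and 7.56% to 9.26% in Nat10-CKO. The part of these shifts in the members' values was not tested.

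**Figure D4:**
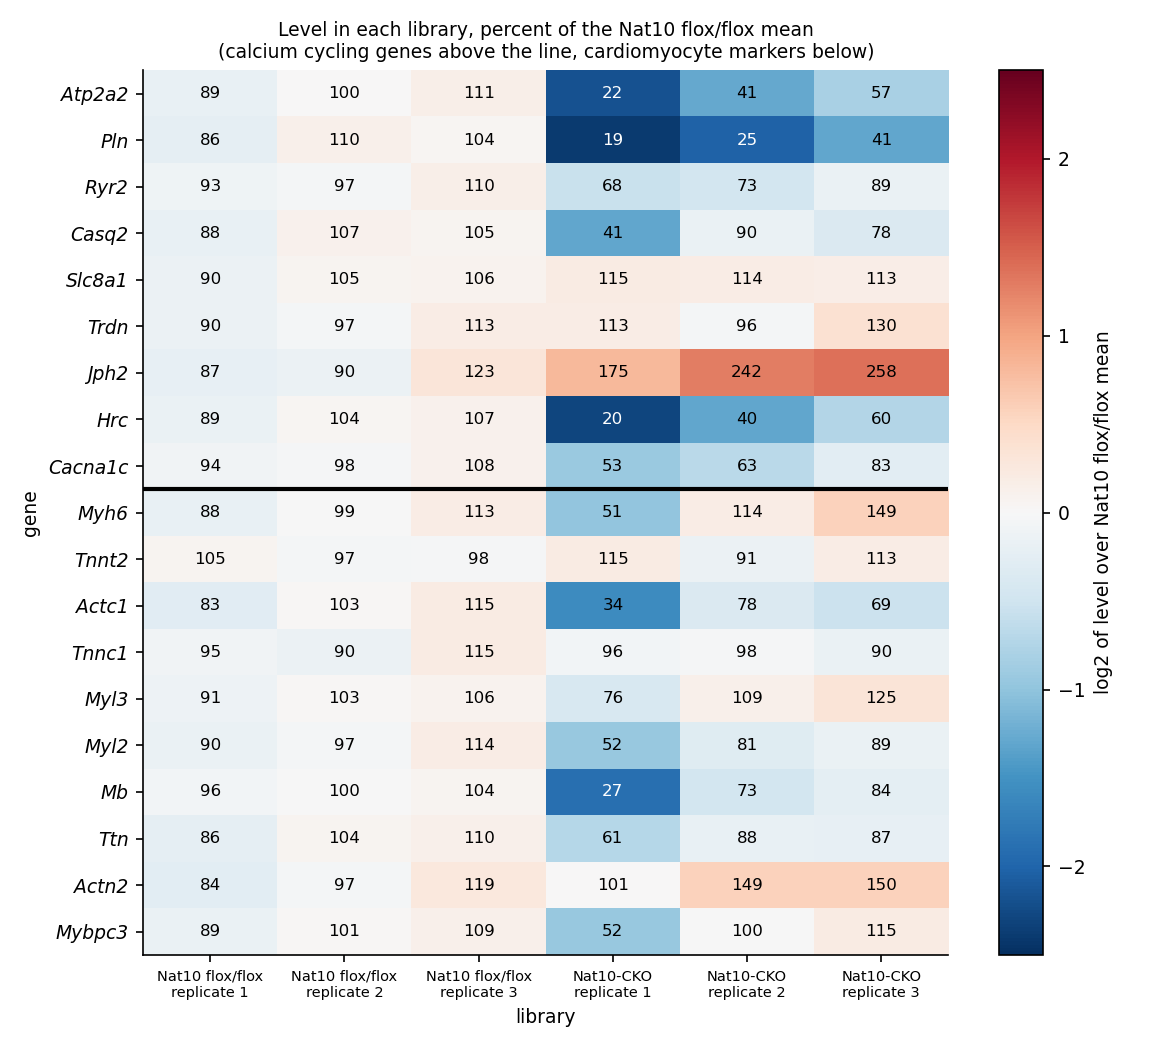
Level in each library as a percent of the Nat10 flox/flox mean, printed in each cell and coloured on a log2 scale, for 9 calcium cycling genes (above the line) and 10 cardiomyocyte markers (below). Pln, Atp2a2 and Hrc are at 19.2% to 60.2% in hearts labelled Nat10-CKO, while Tnnt2 and Tnnc1 stay between 89.6% and 115% and Mb and Actc1 reach 26.9% and 33.6% in replicate 1.

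Other genes of calcium handling were counted in 6 lists, 84 genes tested in all. Of these 15 were higher and 20 lower (41.7% called, against 40.5% of all tested genes), so the share called was near the background. Fewer were called on leaving out Nat10 flox/flox replicate 2 (20 genes) and with the cardiomyocyte marker scaling (12 higher and 6 lower). Over all tested genes, 3285 passed without that replicate and 2699 with that scaling, in place of 4856. Under that scaling Calr, Atp2a3, Cacnb2, Rem1, Atp2b4, Camk2g and Ppp1cc, all named below, did not pass (limma adjusted p from 0.0520 for Ppp1cc to 0.354 for Rem1). With no filter on low values, Tcap (0.0601), Cacnb1 (0.0569) and Rem1 (0.0516) did not pass.

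In the list of SERCA regulators and other reticulum proteins, 2 of 12 tested genes were higher and 6 lower, with a median log2 fold change of -0.26. Of the list 66.7% were called, against 40.5% of all tested genes (24.4% higher and 16.0% lower). Srl, which encodes the calcium-binding protein sarcalumenin, fell from 123 ± 16.6 to 62.1 ± 8.12 FPKM (limma adjusted p = 0.00337). Atp2a3, a SERCA pump gene expressed mainly outside muscle, fell from 6.56 ± 0.836 to 3.81 ± 0.645 FPKM (0.0108). Calr, the calcium buffer calreticulin, fell from 146 ± 18.0 to 95.4 ± 12.8 FPKM (0.0182, or 0.0704 on leaving out Nat10 flox/flox replicate 2 and 0.0514 on leaving out replicate 3). Thbs4, a secreted thrombospondin, rose from 1.13 ± 0.139 to 12.5 ± 8.68 FPKM (0.00420), an 11.02-fold change that became 6.67-fold on leaving out Nat10-CKO replicate 2. S100a1, a calcium sensor that binds SERCA2 and the ryanodine receptor, was the most abundant of the list at 305 ± 19.4 and 323 ± 77.8 FPKM and did not pass (adjusted p = 0.840). Its value turned negative with the non-mitochondrial total as the scale (-0.14 as log2 fold change) and on leaving out Nat10-CKO replicate 2 (-0.08) or 3 (-0.02). The micropeptide genes Strit1 (DWORF, which activates SERCA) and Mrln (myoregulin, which inhibits it) were under the filter. Strit1 had 6, 6 and 12 reads in Nat10 flox/flox hearts and 0 in each heart labelled Nat10-CKO, and Mrln had 3, 13 and 12 against 1, 3 and 10. Strit1 was at least 7.83-fold lower, with 3 reads over the group as the floor. In this list the number of lower genes was 3, 2 and 2 on leaving out Nat10 flox/flox replicate 1, 2 and 3 and 3 on leaving out Nat10-CKO replicate 2. The number of higher genes was 1 on leaving out Nat10 flox/flox replicate 2 or 3 and on leaving out Nat10-CKO replicate 1 or 2.

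Among partners of the release channel and the dyad (the junction of surface membrane and reticulum), 4 of 16 were higher and 3 lower. The share called, 43.8%, was near the 40.5% of all tested genes. Myo18b, a sarcomeric myosin, rose 4.07-fold to 167 ± 36.9 FPKM (limma adjusted p = 0.000573). Cav3, the muscle caveolin, rose from 45.6 ± 0.265 to 83.1 ± 11.9 FPKM (0.00316), and Lrrc10 rose 2.08-fold (0.0115). Tcap, telethonin of the Z-disc, fell from 1404 ± 69.5 to 690 ± 204 FPKM (0.00946). Jph2 thus moved in the direction of Cav3 and Myo18b and opposite to Tcap. The number of lower genes was 1 on leaving out Nat10-CKO replicate 1 or 3.

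For calcium entry at the surface, 1 of 15 was higher and 3 lower, 26.7% called against 40.5% of all tested genes. Cacnb2, the main cardiac beta subunit of the channel whose pore is Cacna1c, fell from 8.42 ± 0.960 to 4.79 ± 0.333 FPKM (limma adjusted p = 0.00337). Rrad, an inhibitor of L-type channels and the most abundant of the list, was 86.4 ± 17.9 and 69.8 ± 18.7 FPKM and did not pass (0.315). Cacnb1 rose (0.0192) and Rem1 fell (0.0184). Cacnb1 missed the threshold on leaving out Nat10 flox/flox replicate 2 (0.0661) or 3 (0.0688) or Nat10-CKO replicate 2 (0.0599), which left 0 higher genes in this list. Rem1 missed it on leaving out Nat10 flox/flox replicate 2 (0.0699) or 3 (0.0550) or Nat10-CKO replicate 3 (0.0504).

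Among export genes, 1 of 8 was higher and 3 lower. Atp2b4, a plasma membrane calcium pump, fell from 3.93 ± 0.343 to 2.32 ± 0.0826 FPKM (limma adjusted p = 0.00532). Atp1b1, the beta subunit of the sodium pump, rose 1.85-fold to 219 ± 16.6 FPKM (0.00642).

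Enzymes and receptors that act on the phosphorylation of these proteins were higher for 7 of 24 and lower for 5. The catalytic subunits of protein phosphatase 2A rose, Ppp2ca from 95.05 ± 7.77 to 273 ± 14.98 FPKM (limma adjusted p = 0.000368) and Ppp2cb 2.10-fold (0.00541). Ppp1cc, a catalytic subunit of protein phosphatase 1, which dephosphorylates phospholamban, rose 1.69-fold (0.00620). Camk2g, a calcium-calmodulin kinase, fell 1.88-fold (0.00848), and Adrb1, the main beta-adrenergic receptor of heart muscle, fell from 10.9 ± 0.549 to 4.396 ± 1.68 FPKM (0.00895). Of the other calcium-calmodulin kinase genes listed, Camk2a fell (0.0119) and Camk2b (0.563) did not pass. Camk2d, at 14.7 ± 0.134 and 17.2 ± 1.34 FPKM, was higher in each heart labelled Nat10-CKO but did not pass (0.121). Among protein kinase A genes, Prkar1a rose (0.0117), Prkaca fell (0.0296), and Prkacb (0.129) and Prkar2a (0.512) did not pass. With the cardiomyocyte marker scaling, 1 gene of this list was lower. Hspb6, which binds phosphatase 1, was the most abundant of the list at 303 ± 34.9 and 385 ± 129 FPKM and did not pass (0.437, or 0.0163 on leaving out Nat10-CKO replicate 1). The number of higher genes was 4 on leaving out Nat10 flox/flox replicate 2 and 11 on leaving out Nat10-CKO replicate 1, and the number of lower genes was 3 on leaving out Nat10 flox/flox replicate 1 or 2 and on leaving out Nat10-CKO replicate 2.

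The mitochondrial calcium uptake list gave 0 calls with limma among 9 tested genes (40.5% of all tested genes were called), with a median log2 fold change of -0.21. At an unadjusted p under 0.05 it held 1 gene, and limma's voom on read counts recovered from the FPKM also called 0. With libraries scaled to their non-mitochondrial total, 3 genes of the list were lower. The number lower was 2 with the protein-coding total, 2 with quantile normalization and 1 with array weights. Mcu, the uniporter pore, was 3.37 ± 0.236 and 3.97 ± 0.905 FPKM. Ghitm, an inner-membrane protein and the most abundant of the list, was 171 ± 9.96 and 131 ± 30.7 FPKM (limma adjusted p = 0.137, or 0.0281 with the non-mitochondrial total).

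**Figure D5:**
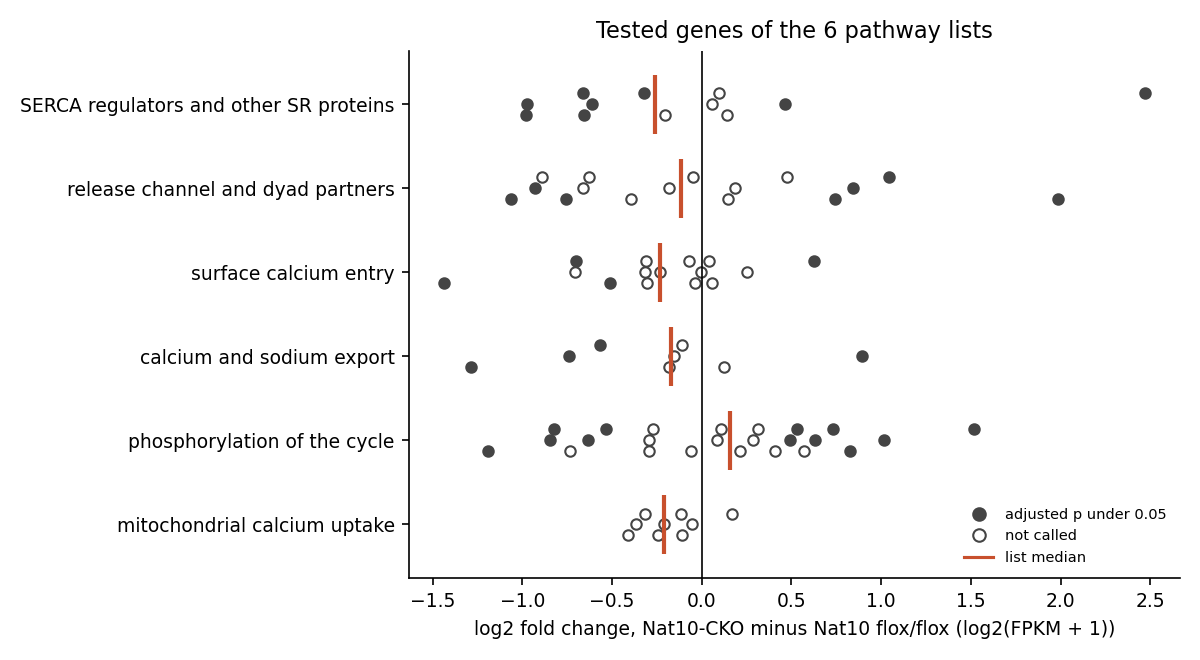
Log2 fold change on the log2(FPKM + 1) scale, libraries labelled Nat10-CKO minus Nat10 flox/flox (3 per group), of the 84 tested genes in 6 lists, one point per gene, filled where the adjusted p was under 0.05, with a bar at each list's median. Called genes lie on both sides of 0 in 5 lists, and the mitochondrial calcium uptake list has none.

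The tested genes whose log2(FPKM + 1) followed Atp2a2 most closely over the 6 libraries were Pdk2 (Pearson r = 0.9999), Ttc38 (0.9994), Uqcrfs1 (0.9990) and Aldh4a1 (0.9988). For Pln they were Abcc9 (0.9992), Cramp1l (0.9977), Pxmp2 (0.9974) and Etfa (0.9971). These are descriptions over 6 libraries that fall into 2 groups and share their scaling. Of 11987 tested genes outside the members, 639 had an r above 0.95 with Atp2a2 and 634 with Pln, counting those named here. Pdk2, pyruvate dehydrogenase kinase 2, went from 175 to 85.6 FPKM on average, and Abcc9, a subunit of ATP-sensitive potassium channels, from 48.7 to 18.7 FPKM.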

How the data were processed

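The deposited values were FPKM per gene, made by the authors for 46452 genes in 6 heart libraries. Per the series' design text and the submitters' processing notes, HISAT2 2.2.1 placed the read pairs on GRCm39, featureCounts 2.0.6 counted them per gene, and DESeq2 1.42.0 and CASAVA are also named there. The strand setting and the definition of gene length, which enters FPKM, are not given in the sources used here. Whole reads were recovered from the deposited FPKM and gene lengths (100.0% of values within 0.01 of a whole number), and totalled 31155521 to 38051266 per library. The FPKM denominators matched size factors (medians over genes of a library's reads relative to the gene's geometric mean) at a ratio of 1.00 in each library. Scaling to the non-mitochondrial total replaces that scale. The mitochondrially encoded genes were dropped and the libraries set to equal totals of the rest. A count test was not the main result because the deposited unit is FPKM, and limma's voom on these reads was an alternative. Floors of 3 reads cover counting error only, and the 95% intervals are limma's, from the spread between libraries.

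Genes with a mean of at least 1 FPKM (11996) were fitted as log2(FPKM + 1) with limma 3.58.1 (trend, R 4.3.3), both groups together, Benjamini-Hochberg adjusted, two-sided. The pseudocount makes fold changes of low genes smaller. Mean folds are ratios of FPKM means. Sums and ratios were compared by exact permutation in Python 3.11.15 with scipy 1.17.1, and figures were drawn with matplotlib 3.10.9. The fit was tested on simulated data. The Sln ratio to Atp2a2 was not formed because 3 libraries were at 0.

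The members and lists were chosen with earlier results of these data known. Of 109 listed pathway genes 107 matched. Erln and Arln did not, and Tmbim5 was matched as Ghitm. The genes named in a list were up to 4 with the smallest adjusted p among those called and the 1 with the highest mean, with Strit1 and Mrln whatever their values. Some genes that this rule names are not reported here. The 4 genes most like Atp2a2 and Pln were named by Pearson's r, and Sln had none because it was not tested. Adrb1, Camk2a, Camk2b, Camk2d, Prkar1a, Prkaca, Prkacb, Prkar2a, Mcu, Tnnt2, Tnnc1, Actn2, Actc1, Mb, Myl2, Myl3, Irx4, Hand1, Kcnip2, Kcnj2, Myl4, Myl7, Bmp10, Nppa, Cacna1s, Akap5, Jph3, Atp2b2 and Prph were named after their values were seen. Promoter windows came from RefSeq on GRCm38.p6, a different build from that of the gene positions. Alternatives were other pseudocounts (0.1 and 0.5), filters and scalings, quantile normalization, array weights, no trend, a replicate block, voom and each library left out. The scaling to cardiomyocyte markers was added after seeing the data.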

Additional observations from a re-analysis of the deposited data

How the results depend on the processing

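Pln (log2 fold change -2.19 to -1.64) and Jph2 (0.97 to 1.40) kept their direction and their call in all 19 alternatives, and Casq2 (-0.81 to -0.25) was called in none. With no filter on low values, 2 members passed in place of 5, since Atp2a2 (-1.41), Hrc (-1.43) and Cacna1c (-0.58) missed the threshold, and 21 pathway genes passed in place of 35. Over all genes, 4397 of 27977 tested passed there, in place of 4856 of 11996. With the cardiomyocyte marker scaling, chosen after seeing the data, 2699 genes passed in place of 4856, 76.3% of them higher in place of 60.4%, 18 pathway genes passed, and Cacna1c (-0.36) did not. That scaling moved the median log2 fold change of all tested genes from 0.03 to 0.24. Scaling to the non-mitochondrial total moved this median to -0.12 and the share higher to 41.7%. Ryr2 passed with the non-mitochondrial total (-0.57), with the protein-coding total (-0.42), with quantile normalization (-0.63) and with array weights (-0.43). Trdn turned negative with the non-mitochondrial total (-0.018), quantile normalization (-0.092) and array weights (-0.017), and Slc8a1 with quantile normalization (-0.024). S100a1 turned negative with the non-mitochondrial total (-0.14). With each library left out in turn it ran from -0.077 without Nat10-CKO replicate 2 to 0.27 without Nat10-CKO replicate 1. Without both replicates numbered 1, Cacna1c missed the threshold (-0.48). The cause of these changes was not tested. With each library left out in turn, 3285 to 5055 genes, 2 to 6 members and 20 to 37 pathway genes passed. The log2 fold changes then ran from -1.72 to -1.03 for Atp2a2, -1.78 to -1.01 for Hrc, -0.74 to -0.44 for Cacna1c and -0.49 to -0.30 for Ryr2. Of the list counts, 183 of 228 stayed within 1.5 times and 45 did not. The log2 ratios to Atp2a2 and the summed FPKM moved by less than 1 SD in every alternative run. Groups share replicate numbers. Deviations of same-numbered libraries correlated at 0.06, 0.04 and 0.11, and those of other pairs at -0.12 to 0.07. Not every library correlated best with its own number. With 3 libraries per group these values cannot decide whether the numbers pair the libraries. With the replicate block, 4390 genes, 5 members and 33 pathway genes passed, with 1 lower gene in the release channel list in place of 3 and 1 in the mitochondrial list in place of 0. With 3 libraries per group the exact tests cannot go below 0.1, and Sln, at 0 to 6 reads, was too near the limit of detection to compare.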

Other observations

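Some genes of the calcium lists were below the filter of 1 FPKM and so were outside the main test. Cacna1s, the pore of the skeletal muscle L-type channel, had 289, 303 and 218 reads in Nat10 flox/flox hearts and 11, 13 and 20 in hearts labelled Nat10-CKO. Akap5, an anchor of protein kinase A, had 219, 157 and 160 reads against 8, 21 and 13. Both were lower in each heart labelled Nat10-CKO, with limma adjusted p of 0.00386 for Cacna1s and 0.00203 for Akap5 when no filter was used.

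Other list genes were high in Nat10 flox/flox replicate 1 alone. Jph3, a junctophilin of neurons, had 840 reads there, 10 and 2 in replicates 2 and 3 of that group, and 4 to 6 in hearts labelled Nat10-CKO. Atp2b2, a plasma membrane calcium pump, had 454 reads there and 2 to 17 in the other 5. The nerve marker Prph was at 117 FPKM in that library and at 0.0538 to 0.185 FPKM in the other 5, and its part in these values was not tested.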
